A study of Mus musculus with 3 samples.

Results

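The genes described here are the 8 small leucine-rich proteoglycans Dcn, Bgn, Lum, Fmod, Ogn, Prelp, Aspn and Podn, out of 32285 genes counted. They were chosen by name as members of this family, but with earlier results of these data known, and further family genes are described at the end. Their levels were compared between 4 kinds of stromal cell, which were gated on raw counts of other genes, in each of 3 mice.

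Subcutaneous inguinal fat of wild-type male C57BL/6J mice aged 8 weeks was digested with collagenase, the floating adipocytes were removed, and cells lacking the endothelial protein CD31 and the leukocyte protein CD45 were sorted. From each mouse, 1 library was made in droplets that hold single cells, and unique molecular identifiers (UMIs) at the 3′ end of each transcript were counted. There was 1 condition, so cell populations were compared and mice served as replicates. Of the barcodes, 12984, 6414 and 15179 cells of mice 1, 2 and 3 passed the limits of over 500 genes seen and under 5% of UMIs from mitochondrial genes and were kept, with 94816520, 78108414 and 99328725 UMIs. Median depth per cell was 7392.5, 12192.5 and 6667 UMIs, so the cells of mouse 2 were the deepest. Pairs of libraries shared 52, 81 and 64 barcodes.

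The progenitor gate took cells with at least 3 UMIs of Dpp4 and Pi16 together and at most 1 of Icam1 and Fabp4, and held 19931 cells. The preadipocyte gate took cells with at least 4 UMIs of Icam1 and Fabp4 and at most 1 of Dpp4, and held 5735 cells. The regulatory gate, named for the adipogenesis-regulatory cells (Aregs) that its genes mark, required at least 1 UMI each of Clec11a and Fmo2 with at most 1 of Fabp4 and at most 1 of Dpp4. It held 319, 503 and 500 cells of mice 1, 2 and 3. The Cilp/Myoc gate required at least 3 UMIs of Cilp and Myoc together and at most 1 of Icam1 and Fabp4, and held 635, 315 and 644 cells.

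Marker genes were summed in each gate as a description. The marker lists contain the gating genes themselves, so the order of these sums was partly set by the gating and does not test the labels. The summed level of 8 progenitor markers was 7337 to 7963 UMIs per 1000000 (CPM) in the progenitor gate and 225 to 423 CPM in the preadipocyte gate. For 8 preadipocyte markers the order was opposite, with 732 to 1008 CPM in progenitors and 8696 to 11380 CPM in preadipocytes. The regulatory markers summed to 3489 to 4183 CPM in the regulatory gate, which also held 2773 to 3330 CPM of the preadipocyte markers. The Cilp/Myoc gate held 1562 to 1896 CPM of its own markers, but 5796 to 7591 CPM of the progenitor markers. One of the 6 markers listed for Cilp/Myoc cells, Chad, had 0 UMIs in every gate. Markers of endothelial cells summed to at most 51.2 CPM and those of leukocytes to at most 10.9 CPM in any gate and mouse.

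The gates were not exclusive. The Cilp/Myoc gate lay mostly inside the progenitor gate, which also took 554, 282 and 614 of its cells in mice 1, 2 and 3, or 87.2%, 89.5% and 95.3%. These cells made up only 7.46%, 8.83% and 6.59% of the progenitors. The regulatory gate shared 6.90%, 18.9% and 11.4% of its cells with the preadipocyte gate and 8.46%, 4.77% and 7.80% with the progenitor gate. A shared cell entered both sums, and values with such cells left out are given where a call changed.

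Small leucine-rich proteoglycans are secreted proteins built from leucine-rich repeats that bind collagen fibrils and tune their width and spacing. Most carry chondroitin, dermatan or keratan sulfate chains or sulfated tyrosines, and several also bind growth factors such as TGF-β and receptors at the cell surface. In fat they are made mainly by fibroblast-like stromal cells, and decorin is among the most abundant transcripts of such cells. The family is divided into classes by sequence: Dcn, Bgn and Aspn belong to class I, Lum, Fmod and Prelp to class II, Ogn to class III and Podn to class V.

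Together the 8 genes took 1.62% of the UMIs of the kept cells. Their summed level was lowest in the progenitor gate, at 15157 ± 1371 CPM (SD, n = 3 mice), and highest in the regulatory gate, at 21829 ± 1701 CPM. The preadipocyte gate stood at 17628 ± 1573 CPM and the Cilp/Myoc gate at 17657 ± 1894 CPM. With cells of more than 1 gate left out, the Cilp/Myoc cells that remained were highest, at 30934 CPM against 22021 CPM in the regulatory gate. They were only 80, 30 and 29 cells of mice 1, 2 and 3, with 9.28%, 6.40% and 2.56% of the UMIs of the gate. Their sum does not stand for the whole gate. One UMI stands for 1 tagged molecule and is not scaled by transcript length, so these sums, and any level set beside that of another gene, count molecules.

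Dcn dominated the sum everywhere, but the rest of the mixture differed between gates. Dcn made up 79.2 ± 3.89% of the family's UMIs in progenitors, 71.4 ± 2.63% in preadipocytes, 81.4 ± 1.98% in the regulatory gate and 76.4 ± 3.97% in the Cilp/Myoc gate (SD, n = 3 mice). The second gene was Ogn in progenitors, with 13.0%, and in Cilp/Myoc cells, with 13.5%. In preadipocytes it was Lum with 12.6%, and in regulatory cells Lum and Bgn followed with 6.41% and 5.15%.

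**Figure D1:**
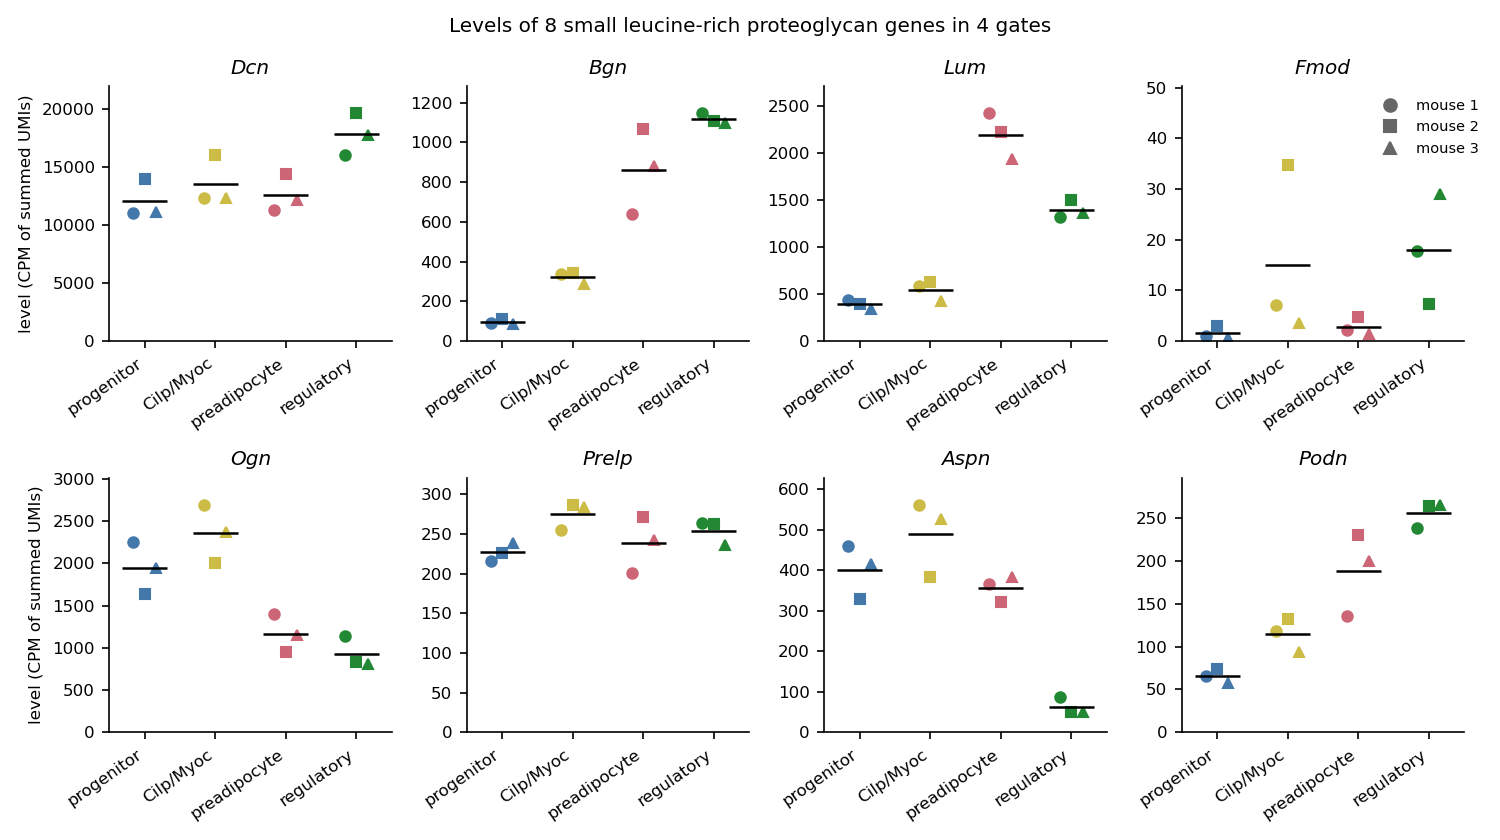
Levels of the 8 genes in CPM of summed UMIs (vertical axes, each from 0 and with its own scale) in the 4 gates, with 1 point per mouse and a bar at the mean of 3 mice. Bgn and Podn climbed from progenitors to regulatory cells, Aspn fell to 62.3 ± 20.7 CPM in regulatory cells, and Prelp stayed between 200 and 286 CPM in every gate and mouse.

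Several of the genes are neighbours in the genome (GRCm38, GENCODE M21 annotation). Dcn (chr10:97479609-97518143) and Lum (chr10:97565128-97572703) lie 47.0 kb apart on the plus strand. Aspn (chr13:49544443-49567565) and Ogn (chr13:49608046-49624501) lie 40.5 kb apart on the plus strand, in a stretch that also holds the family genes Omd and Ecm2. Prelp (chr1:133910304-133921414, minus strand) and Fmod (chr1:134037254-134048277, plus strand) are separated by 115.8 kb. Bgn (chrX:73483602-73495933, plus strand) and Podn (chr4:108014791-108096445, minus strand) have no other member near them.

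Of the 3 pairs of neighbours, Ogn and Aspn had the same order of gates by mean level, and the other pairs did not. Over the 12 sums of 4 gates and 3 mice, with the mean of each mouse taken off log2(CPM + 1), Pearson's r was 0.80 for Ogn and Aspn, 0.50 for Fmod and Prelp and 0.38 for Dcn and Lum. The pair on separate chromosomes, Bgn and Podn, had the highest r of all 28 pairs, 0.98. These 12 sums come from 3 libraries and partly from shared cells, so the coefficients describe the sums and carry no test.

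The promoters of Bgn and Podn and of Ogn and Aspn are shown, since the genes of each pair had the same order of gates by mean level. Dcn and Fmod also shared an order, with an r of 0.80, but no Dcn promoter was found to set beside that of Fmod. RefSeq promoter sequences (GRCm38.p6, 250 bases before the start) were found for 6 of the 8 genes, not for Dcn or Lum. Capitals mark matches to the GC box GGGCGG in Bgn and Podn and to the TATA box TATAAA or the CCAAT box CCAAT in Ogn and Aspn, on either strand, where overlapping matches run together. Bgn is at chrX:73483351-73483600 on the plus strand, Podn at chr4:108031955-108032204 on the minus strand, Ogn at chr13:49607765-49608014 and Aspn at chr13:49544193-49544442, both on the plus strand. The Podn window, like the second one named below, lies inside the GENCODE span of the gene given above. Its RefSeq start is therefore not the start of that GENCODE span.
Bgn: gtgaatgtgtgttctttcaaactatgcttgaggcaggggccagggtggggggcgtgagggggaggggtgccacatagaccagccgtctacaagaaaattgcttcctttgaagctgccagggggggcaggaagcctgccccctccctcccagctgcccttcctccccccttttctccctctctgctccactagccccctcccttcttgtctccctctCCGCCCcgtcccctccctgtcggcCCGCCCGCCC
Podn: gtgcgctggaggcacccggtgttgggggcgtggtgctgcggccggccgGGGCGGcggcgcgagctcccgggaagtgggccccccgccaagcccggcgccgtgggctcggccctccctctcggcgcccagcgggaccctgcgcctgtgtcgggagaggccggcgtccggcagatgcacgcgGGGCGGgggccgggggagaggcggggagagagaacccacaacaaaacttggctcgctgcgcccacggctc
Ogn: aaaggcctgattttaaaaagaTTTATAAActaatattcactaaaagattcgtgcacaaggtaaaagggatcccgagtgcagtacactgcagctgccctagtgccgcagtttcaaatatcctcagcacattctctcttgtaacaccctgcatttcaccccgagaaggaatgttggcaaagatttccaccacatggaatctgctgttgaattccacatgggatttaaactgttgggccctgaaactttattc
Aspn: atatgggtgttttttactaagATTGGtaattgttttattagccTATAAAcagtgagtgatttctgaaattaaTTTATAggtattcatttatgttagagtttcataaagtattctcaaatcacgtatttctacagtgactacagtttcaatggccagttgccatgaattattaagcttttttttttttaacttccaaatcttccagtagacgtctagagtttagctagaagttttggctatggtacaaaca
The GC content was 64.4% for Bgn and 78% for Podn, but 42% for Ogn and 30% for Aspn, beside a median of 52.4% over 32851 promoters. It was 51.2% for Fmod and 55.6% for Prelp. A link between promoter sequence and the order of gates was not tested. Bgn held GGGCGG 34, 10 and 6 bases before the start, the last pair overlapping, and Podn held it 202 and 70 bases before. A second Podn promoter in the table (chr4:108030987-108031236, minus strand) had a GC content of 64% and held no GGGCGG. This motif was found in 32.7% of all promoters. TATAAA was found 229 and 227 bases before the Ogn start, overlapping, and 207 and 178 bases before the Aspn start, while 12.4% of all promoters held it. CCAAT stood 229 bases before the Aspn start and 15 bases before that of Prelp, and occurred in 33.8% of promoters. No match to the AP-1 site TGANTCA (6.75% of promoters) or to the E-box CACGTG (6.02%) was found in the window of any of these genes. The window of Fmod held none of the motifs. A match of letters is a description of the sequence and not a site of binding.

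Dcn encodes decorin, which carries a single chondroitin or dermatan sulfate chain, binds collagen I and binds TGF-β. It was at 11031, 13957 and 11118 CPM in the progenitors of mice 1, 2 and 3 and at 11321, 14350 and 12164 CPM in the preadipocytes. In the Cilp/Myoc gate it reached 12338, 16009 and 12275 CPM, and in the regulatory gate 16052, 19615 and 17718 CPM. Mouse 2 was highest in all 4 gates, and the regulatory values lay above those of every other gate in the same mouse. Dcn was 1.51-fold higher in regulatory cells than in progenitors (log2 0.60 ± 0.05 SE, adjusted p = 3.17e-07) and 1.48-fold higher than in preadipocytes (adjusted p = 1.35e-06). Preadipocytes and progenitors were not distinguished, with a log2 difference of 0.03 and a 95% interval from -0.07 to 0.14 (adjusted p = 0.596).

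Bgn encodes biglycan, the close relative of decorin with a pair of chains, which can also act as a danger signal at Toll-like receptors. Its level was 88.0, 108 and 85.0 CPM in the progenitors of mice 1, 2 and 3, 339, 340 and 286 CPM in the Cilp/Myoc gate, 642, 1066 and 880 CPM in preadipocytes and 1147, 1111 and 1096 CPM in the regulatory gate. The values of the 4 gates did not overlap. Bgn was 12.2-fold higher in regulatory cells than in progenitors (log2 3.61 ± 0.13 SE, adjusted p = 1.42e-10) and 8.93-fold higher in preadipocytes than in progenitors (log2 3.16 ± 0.13, adjusted p = 1.12e-10). The step from preadipocytes to regulatory cells was smaller, at log2 0.45 ± 0.12 SE (adjusted p = 0.0126), and it rested on single mice: it was 0.23 (adjusted p = 0.0761) without mouse 1, and the adjusted p was 0.0807 without mouse 3.

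Aspn encodes asporin, a class I protein without a typical glycosaminoglycan chain that binds collagen and TGF-β. Progenitors held 461, 329 and 415 CPM, preadipocytes 366, 321 and 384 CPM and Cilp/Myoc cells 561, 382 and 526 CPM in mice 1, 2 and 3. The regulatory gate held only 86.3, 50.5 and 50.3 CPM, below every value of the other gates. Aspn was thus 6.45-fold lower in regulatory cells than in progenitors (log2 -2.69 ± 0.12 SE, adjusted p = 1.02e-09) and 5.64-fold lower than in preadipocytes (log2 -2.50 ± 0.12 SE, adjusted p = 8.35e-09). It was the only class I gene of the 3 that was lower in regulatory cells. Progenitors and preadipocytes overlapped and differed by a log2 of -0.19, with an interval from -0.41 to 0.02 (adjusted p = 0.111).

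Lum encodes lumican, a keratan sulfate proteoglycan that limits the width of collagen fibrils. It was at 442, 398 and 335 CPM in the progenitors of mice 1, 2 and 3 and at 2427, 2232 and 1943 CPM in the preadipocytes. Regulatory cells held 1325, 1502 and 1366 CPM and Cilp/Myoc cells 584, 624 and 427 CPM. Preadipocytes were highest in each mouse, and the progenitors and Cilp/Myoc cells overlapped only between mice. Lum was 5.49-fold higher in preadipocytes than in progenitors (log2 2.46 ± 0.08 SE, adjusted p = 2.23e-11). It was 1.50-fold lower in regulatory cells than in preadipocytes (log2 -0.58 ± 0.08 SE, adjusted p = 9.76e-05), while its neighbour Dcn was higher there.

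Prelp, which encodes a basic class II protein that binds heparan sulfate and basement membranes, varied least. Its level was 216, 226 and 238 CPM in progenitors, 200, 272 and 242 CPM in preadipocytes, 263, 262 and 235 CPM in regulatory cells and 255, 286 and 283 CPM in Cilp/Myoc cells of mice 1, 2 and 3. The gates overlapped, and the highest mean was 1.21 times the lowest. Of the 6 pairs of gates only Cilp/Myoc against preadipocyte passed the test (log2 0.24 ± 0.09 SE, adjusted p = 0.0349), and not without mouse 1 (adjusted p = 0.136) or mouse 3 (adjusted p = 0.151).

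Ogn encodes osteoglycin, or mimecan, a class III protein with keratan sulfate. It was the second most abundant member in progenitors, at 2247, 1632 and 1943 CPM in mice 1, 2 and 3, and Cilp/Myoc cells held 2692, 2005 and 2367 CPM. Preadipocytes held 1399, 949 and 1155 CPM and regulatory cells 1139, 832 and 813 CPM. Mouse 1 was highest in all 4 gates, and every progenitor value lay above every preadipocyte and regulatory value. Ogn was 1.71-fold lower in preadipocytes (log2 -0.78 ± 0.07 SE, adjusted p = 2.47e-07) and 2.05-fold lower in regulatory cells (log2 -1.04 ± 0.07 SE, adjusted p = 3.30e-08) than in progenitors.

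Podn encodes podocan, a class V protein that binds collagen I. It was at 66.1, 73.6 and 57.8 CPM in progenitors, 118, 132 and 93.3 CPM in Cilp/Myoc cells, 136, 230 and 199 CPM in preadipocytes and 238, 263 and 265 CPM in regulatory cells of mice 1, 2 and 3. In each mouse the gates stood in this same order, which is that of Bgn. Podn was 2.76-fold higher in preadipocytes than in progenitors (log2 1.46 ± 0.13 SE, adjusted p = 2.19e-07) and 3.94-fold higher in regulatory cells (log2 1.98 ± 0.13 SE, adjusted p = 4.23e-08). Between regulatory cells and preadipocytes the log2 difference was 0.51 ± 0.13 SE (adjusted p = 0.00962), and 0.34 without mouse 1. Scp2 and Podn overlap on the same strand without a shared exon.

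Fmod encodes fibromodulin, a keratan sulfate proteoglycan typical of tendon that binds collagen I next to lumican. It was rare, at 0.908, 2.90 and 0.646 CPM in the progenitors of mice 1, 2 and 3 and at 2.16, 4.75 and 1.36 CPM in preadipocytes. Regulatory cells held 17.7, 7.34 and 29.0 CPM and Cilp/Myoc cells 7.07, 34.7 and 3.45 CPM. The regulatory values lay above all progenitor and preadipocyte values, whereas the Cilp/Myoc values spanned the regulatory ones. Fmod was higher in regulatory cells than in progenitors (log2 3.67 ± 0.70 SE, adjusted p = 0.0007), at 5.01 without mouse 2 and 2.41 without mouse 3.

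Few cells carried these counts. A single cell of mouse 2, which met both the Cilp/Myoc and the progenitor gate, held 103 of the 140 Fmod UMIs of its Cilp/Myoc sum. With the cell of most Fmod UMIs left out of each sum, the Cilp/Myoc levels were 2.91, 9.18 and 0.215 CPM and the progenitor levels 0.538, 0.233 and 0.517 CPM. The value 0.215 CPM is 1 UMI, under the 0.646 CPM that 3 UMIs would give in that sum. The regulatory levels stayed at 13.7, 6.21 and 24.5 CPM, above the 1.99, 4.44 and 1.08 CPM of the preadipocytes.

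**Figure D2:**
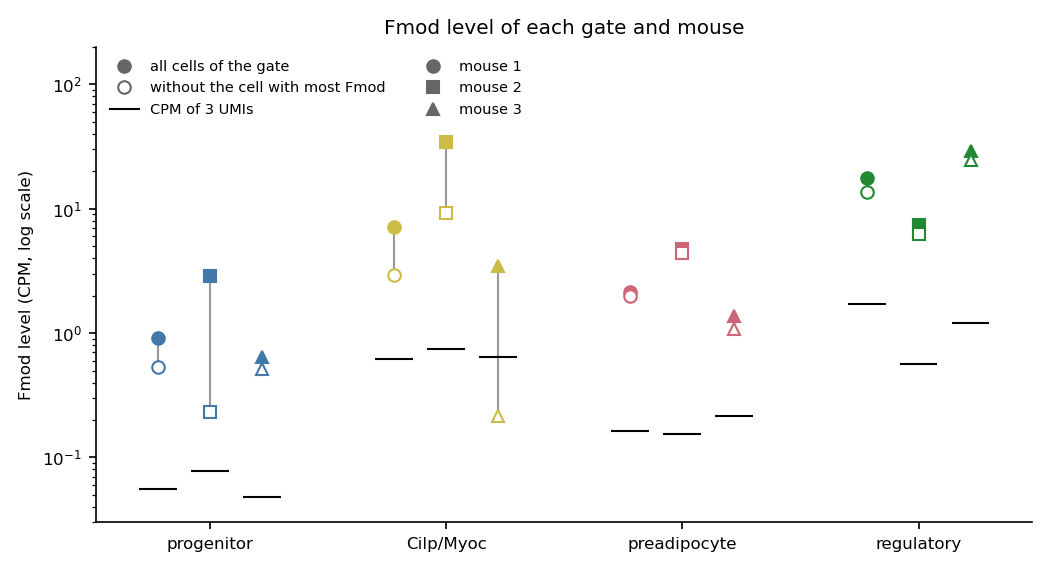
Fmod level in CPM on a log axis for each gate and mouse, with all cells (filled) and without the cell holding most Fmod UMIs (open), and a short line at the level that 3 UMIs give in that sum. In mouse 2 the Cilp/Myoc point moved from 34.7 to 9.18 CPM. The regulatory points lay between 7.34 and 29.0 CPM with all cells and between 6.21 and 24.5 CPM without that cell.

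Of the 34577 kept cells, 48 had at least 3 Fmod UMIs, and 19 of those were among the 1322 regulatory cells (1.44%; 5, 4 and 10 cells of mice 1, 2 and 3). The progenitor gate held 10, the preadipocyte gate 10, the Cilp/Myoc gate 6, and 11 met none of the gates. Summed over the 11, 18 and 19 such cells of mice 1, 2 and 3, the tendon marker Tnmd, which encodes tenomodulin, was at 670, 510 and 0 CPM. The tendon factor Scx was at 43.7, 22.8 and 0 CPM, from 3, 5 and 0 UMIs. The remaining tendon markers, Mkx and Kera, had 1, 2 and 0 UMIs and 0, 9 and 0 UMIs. The same cells also held some markers of other lists. The regulatory marker Mgp was at 4877, 2123 and 4202 CPM. In the Cilp/Myoc list, Cilp was at 3057, 1034 and 422 CPM, Mfap4 at 1660, 542 and 681 CPM and Thbs4 at 2300, 246 and 89.2 CPM. Myoc was at 14.6, 282 and 16.2 CPM, and Comp and Chad had 0 UMIs. In the preadipocyte list, Lpl was at 1135, 2323 and 324 CPM and Col4a1 at 1470, 1594 and 811 CPM. Fabp4 was at 0, 1039 and 16.2 CPM, and Pparg had 0, 7 and 0 UMIs. Among all cells of the Cilp/Myoc gate the 4 tendon markers summed to 13.1 to 33.5 CPM, against 1.66 to 3.23 CPM in progenitors, 1.08 to 1.63 CPM in preadipocytes and 0 to 3.39 CPM in regulatory cells. The part of tendon cells in the Fmod level was not tested.

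The share of cells with at least 1 UMI gave the same order of gates as the levels for the genes that differed most. Each cell was first thinned to 3000 UMIs, since the gates differed in depth, and 1450 progenitors, 167 preadipocytes, 232 regulatory cells and 79 Cilp/Myoc cells were too shallow. Bgn was then found in 13.3% of progenitors, 33.1% of Cilp/Myoc cells, 80.1% of preadipocytes and 86.1% of regulatory cells (means of 3 mice), against 23.9%, 45.8%, 92.1% and 90.5% before thinning. Aspn was found in 61.0%, 67.6%, 56.5% and 11.4%, Podn in 16.4%, 27.1%, 41.3% and 50.2%, and Lum in 56.9%, 62.5%, 97.6% and 92.1% of thinned cells in the same gate order.

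Ogn and Dcn were found in most cells of every gate. After thinning, Ogn was in 98.1% of progenitors, 98.6% of Cilp/Myoc cells, 90.6% of preadipocytes and 79.1% of regulatory cells, so its lower level came with fewer cells. Dcn was found in nearly 100% of all 4. Prelp was in 47.6% to 52.7% of cells, and Fmod in 0.111% of progenitors, 0.711% of Cilp/Myoc cells, 0.627% of preadipocytes and 3.00% of regulatory cells. At least 6 of the 8 genes were seen together in 6.88% of progenitors, 17.7% of Cilp/Myoc cells, 39.6% of preadipocytes and 23.6% of regulatory cells.

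As a background for free RNA, 54 kept cells with at least 3 UMIs of Pecam1 and Cdh5 and none of Pdgfra were counted, of which 17 were deep enough to thin. Their median depth was 2038, 1999 and 5242 UMIs in mice 1, 2 and 3. Lum was found in 8 of the 54 cells before thinning (14.8%) and in 0 of 17 after it (exact 95% interval 0% to 19.5%). After thinning, Dcn was found in 13 of these 17 cells (76.5%), Bgn in 8 (47.1%, 23.0% to 72.2%) and Aspn in 4 (23.5%, 6.81% to 49.9%). These cells held 276, 265 and 760 CPM of Bgn and 32.5, 0 and 313 CPM of Fmod, more than the progenitors except for Fmod in mouse 2, so they set no background for these 2 genes and nothing is read from their shares. Aspn was at 64.9, 194 and 44.7 CPM in them, a range that holds the 3 levels of the regulatory gate. In mouse 3 they also held 11036 CPM of Dcn and 2457 CPM of Ogn, so it is unclear whether they measure free RNA. A second background was 6 kept cells with at least 3 UMIs of Ptprc and Tyrobp and none of Pdgfra. Before thinning, Dcn was found in 5 and Lum in 4 of these 6, and the other members in 0. Aspn was in 0 of 6 after thinning as well (exact 95% interval 0% to 45.9%), and this interval holds 11.4%. Whether the Aspn share in regulatory cells, 11.4%, lies above background therefore cannot be told from either group. The intervals cover counting error only.

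**Figure D3:**
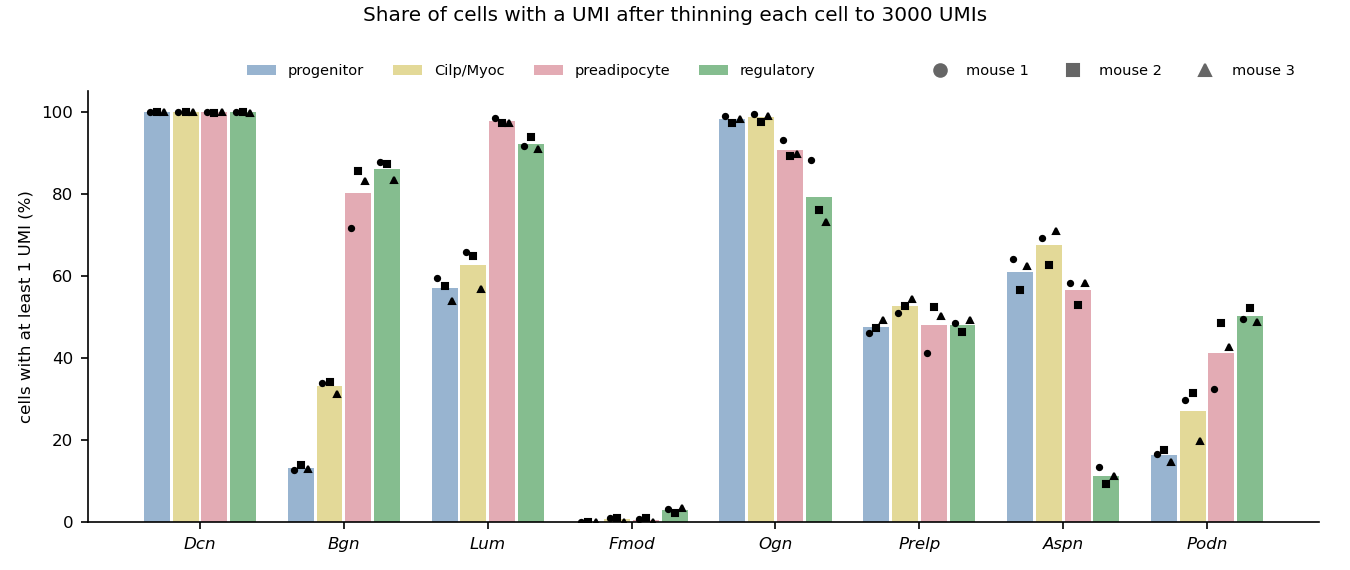
Percentage of cells with at least 1 UMI of each gene after every cell was thinned to 3000 UMIs, for the 4 gates, with bars at the mean of 3 mice and 1 point per mouse. Bgn, Lum and Podn have tall bars in preadipocytes and regulatory cells, and Aspn has its low bar, 11.4%, in regulatory cells.

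Preadipocytes were compared with progenitors to ask how the proteoglycans differ between these gates, which are not stages followed over time. Bgn, Lum and Podn were higher and Ogn was lower in preadipocytes. Dcn, Prelp, Aspn and Fmod did not pass the test, Fmod with a wide interval from -0.42 to 2.35 on the log2 scale. In all 4 of 8 members passed, beside 59.9% of the 12566 genes tested (29.7% higher and 30.1% lower), so the count of members was near that of all genes. The median log2 difference of the 8 genes was 0.50, against 0.01 for all genes tested. With cells in more than 1 gate left out, Fmod passed too (log2 3.04, adjusted p = 0.00036). Markers of mural cells summed to 28.7 to 48.6 CPM in preadipocytes and 3.03 to 5.43 CPM in progenitors, and those of Schwann cells to 20.3 to 35.5 and 2.66 to 5.61 CPM. Of 12 early stress-response genes 8 were higher and 2 lower in preadipocytes. Their median mitochondrial percentage was 1.67, 2.67 and 2.01 in mice 1, 2 and 3. In the preadipocytes of mouse 2, 4 skeletal muscle markers summed to 240 CPM. The part of all these in the results was not tested.

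In regulatory cells against progenitors 7 of 8 members passed, 5 higher and 2 lower, beside 47.2% of all genes (22.7% higher and 24.5% lower). Dcn, Bgn, Lum, Fmod and Podn were higher, Ogn and Aspn were lower, and Prelp had a log2 difference of 0.18 with an interval from 0.00 to 0.37 (adjusted p = 0.102). The median of the 8 was 1.24, against -0.01 for all genes. These calls were the same with cells in more than 1 gate left out. Of 12 early stress-response genes 10 were higher and 1 lower in regulatory cells. Their median mitochondrial percentage was 1.82, 2.55 and 1.96 against 1.29, 1.93 and 1.48 in progenitors of mice 1, 2 and 3. The epithelial marker list summed to 150 CPM in the regulatory gate of mouse 3. The part of all these in the results was not tested.

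Against preadipocytes, regulatory cells again differed in 7 of 8 members, 4 higher (Dcn, Bgn, Fmod, Podn) and 3 lower (Lum, Ogn, Aspn), beside 27.5% of all genes (14.5% higher and 13% lower). The median was 0.31, against -0.01 for all genes. Aspn, Dcn, Lum and Podn passed whichever mouse was left out. The log2 difference of Ogn was -0.26 (adjusted p = 0.0106, and 0.0549 without mouse 3). That of Fmod was 2.71 (adjusted p = 0.0116), but 3.85 without mouse 2, and it did not pass without mouse 1 (adjusted p = 0.0702) or at 1.53 without mouse 3 (adjusted p = 0.164). Regulatory cells were the shallowest, at a median of 5160, 10957 and 4815 UMIs per cell in mice 1, 2 and 3 against 8077, 12997 and 7257 UMIs in preadipocytes.

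**Figure D4:**
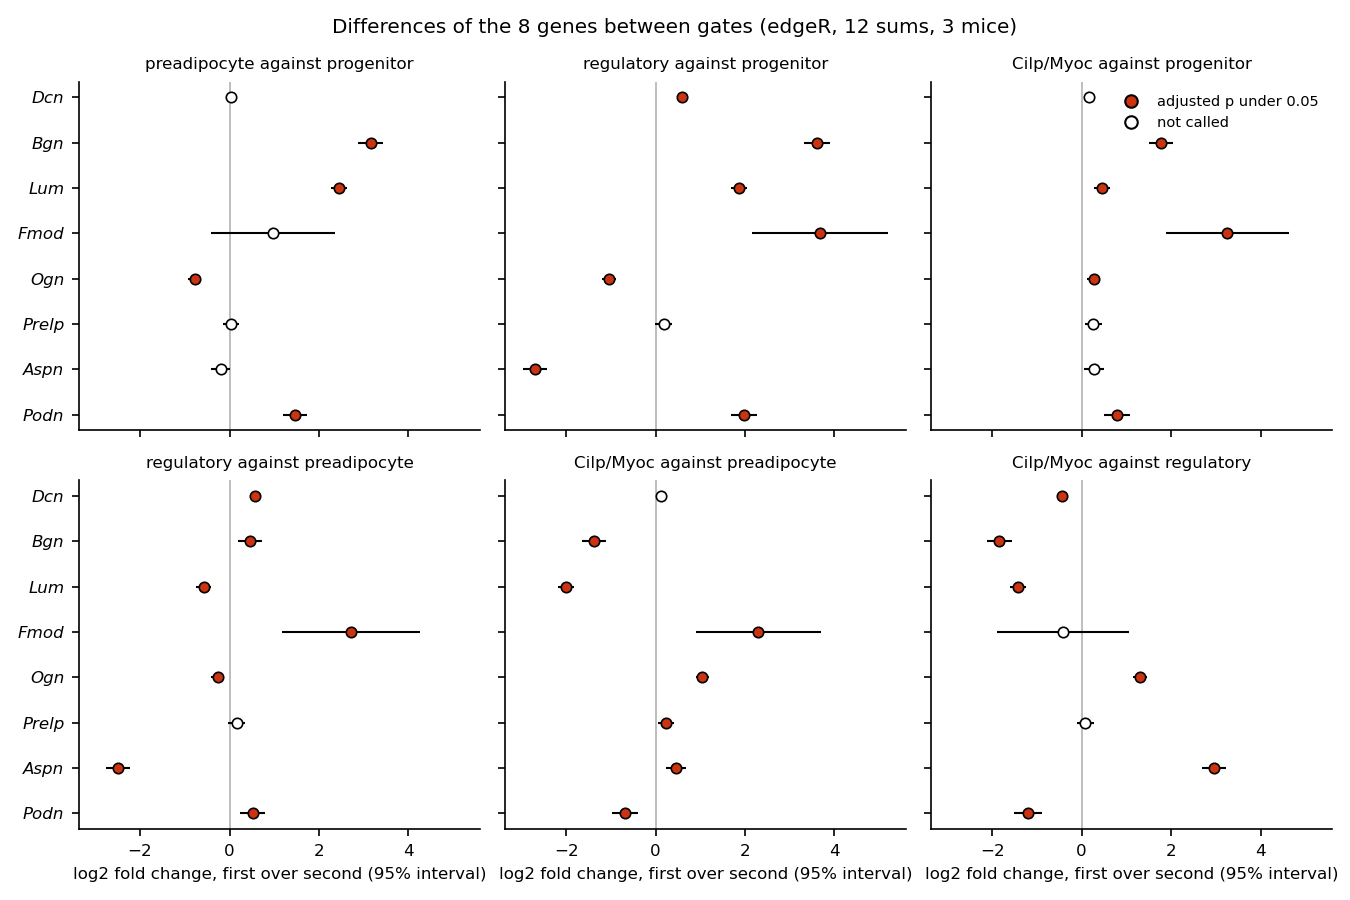
Log2 fold changes of the 8 genes for the 6 pairs of gates (horizontal axes, first gate over second), with 95% intervals from edgeR and filled points where the adjusted p was under 0.05. Aspn stands near -2.69 and -2.50 for regulatory cells, Prelp stays near 0, and the Fmod intervals are the widest.

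Cilp/Myoc cells, which express the matrix genes Cilp and Myoc, were compared with progenitors to ask what sets this group apart within a gate that holds most of it. Bgn was 3.42-fold higher (log2 1.77 ± 0.13 SE, adjusted p = 3.21e-06), and Podn (log2 0.78, adjusted p = 0.00388), Lum (log2 0.45, adjusted p = 0.00479), Fmod (log2 3.26, adjusted p = 0.00875) and Ogn (log2 0.27, adjusted p = 0.0433) were higher as well. These 5 of 8 members, all higher, stand beside 3.77% of all genes (2.63% higher and 1.14% lower). The median was 0.36, against -0.03 for all genes.

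Only Bgn and Fmod of these 5 passed whichever mouse was left out, but 1 cell held 58.8%, 73.6% and 93.8% of the Fmod UMIs of the Cilp/Myoc gate in mice 1, 2 and 3. With the cell of most Fmod UMIs left out of each sum, mouse 3 was lower in Cilp/Myoc cells than in progenitors, at 0.215 against 0.517 CPM. Without mouse 2 the adjusted p was 0.157 for Lum and 0.0841 for Podn, and for Ogn it was 0.141, 0.213 and 0.0602 without mice 1, 2 and 3. The sums share cells, so each shared cell was also counted once, for the Cilp/Myoc gate, an alternative chosen after the overlap was seen. The log2 difference of Bgn was then 2.19, that of Podn 0.89, that of Lum 0.48, that of Ogn 0.29 and that of Fmod 5.21 (adjusted p = 0.0011).

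The Cilp/Myoc cells outside the other gates were few, 80, 30 and 29 in mice 1, 2 and 3, and had a different make-up. They held 24625 CPM of Dcn, 2452 CPM of Lum, 886 CPM of Bgn, 224 CPM of Podn and 93.5 CPM of Fmod (means of 3 mice). Against progenitors Dcn was then higher by a log2 of 0.89 (adjusted p = 1.1e-05), Prelp by 0.66 (adjusted p = 0.000708), Lum by 2.49 and Bgn by 3.43, while Ogn, at -0.20, did not pass (adjusted p = 0.346). These cells gave 9.28%, 6.40% and 2.56% of all UMIs of the gate in mice 1, 2 and 3. They gave 25.0%, 27.2% and 18.8% of its Lum UMIs and 29.4%, 24.3% and 93.8% of its Fmod UMIs. The Fmod shares and the 93.5 CPM rest on only 10, 34 and 15 UMIs, and in mouse 3 a single cell held the 15.

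Cilp/Myoc cells against preadipocytes gave 7 of 8 members, 4 higher and 3 lower, beside 47.4% of all genes (24% higher and 23.4% lower). Ogn was 2.06-fold higher (log2 1.04 ± 0.07 SE, adjusted p = 2.46e-08), with Aspn (log2 0.46, adjusted p = 0.00193), Fmod (log2 2.30, adjusted p = 0.0101, and 1.61 without mouse 2) and Prelp higher as well. With the cell of most Fmod UMIs left out of each sum, Fmod was at 2.91, 9.18 and 0.215 CPM in Cilp/Myoc cells of mice 1, 2 and 3. Preadipocytes then held 1.99, 4.44 and 1.08 CPM, so mouse 3 had the opposite order. Lum was 4.00-fold lower (log2 -2.00 ± 0.08 SE, adjusted p = 3.33e-10), Bgn 2.61-fold lower (adjusted p = 6.63e-07) and Podn 1.61-fold lower (adjusted p = 0.000856). The median was 0.18, against -0.03. With cells of more than 1 gate left out, the differences of Lum (-0.01, adjusted p = 0.99), Bgn (-0.11, adjusted p = 0.771), Podn (0.16, adjusted p = 0.699) and Aspn (0.11, adjusted p = 0.716) no longer passed, and that of Dcn did (0.87, adjusted p = 4.01e-05).

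Against regulatory cells, Cilp/Myoc cells had 2 members higher and 4 lower, 6 of 8 beside 36.2% of all genes (18.5% higher and 17.7% lower). Aspn was 7.78-fold higher (log2 2.96 ± 0.13 SE, adjusted p = 1.44e-09) and Ogn 2.47-fold higher (log2 1.31 ± 0.07 SE, adjusted p = 7.76e-09). Bgn was 3.57-fold, Lum 2.68-fold, Podn 2.29-fold and Dcn 1.36-fold lower. The median was -0.43, against -0.00 for all genes. With cells of more than 1 gate left out Bgn (-0.51, adjusted p = 0.0687), Podn (-0.34, adjusted p = 0.351) and Dcn (0.27, adjusted p = 0.159) did not pass, while Lum (0.62, adjusted p = 0.0436), Prelp (0.49, adjusted p = 0.0243) and Fmod (2.33, adjusted p = 0.0439) were higher. Fmod, which did not pass in all cells (log2 -0.41, interval from -1.88 to 1.06), was -2.24 without mouse 2 (adjusted p = 0.00249).

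Read gene by gene, the order of the gates was complete for 4 of the 8. For Bgn and Podn it was regulatory, preadipocyte, Cilp/Myoc, progenitor, for Lum preadipocyte, regulatory, Cilp/Myoc, progenitor, and for Ogn Cilp/Myoc, progenitor, preadipocyte, regulatory, with every neighbouring pair past the test. Single steps were lost without 1 mouse: Cilp/Myoc to progenitor for Ogn without any one of them and for Lum and Podn without mouse 2, regulatory to preadipocyte for Bgn without mouse 1 or 3, and preadipocyte to regulatory for Ogn without mouse 3. With cells of more than 1 gate left out, the Cilp/Myoc steps were lost for Bgn and Podn against preadipocytes and for Ogn against progenitors, and for Lum Cilp/Myoc cells stood above regulatory cells. For Dcn only the step from regulatory to Cilp/Myoc cells passed, for Aspn only that from preadipocytes down to regulatory cells, and for Fmod only that from Cilp/Myoc cells to preadipocytes. This Fmod step rested on few cells, and in mouse 3 it was turned round when the cell of most Fmod UMIs was left out of each sum. For Prelp no neighbouring pair passed. How many of all genes tested had a complete order was not counted, so the 4 of 8 are a description only.

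The study divides Icam1-expressing cells by Cd44, in clusters and by sorting on the 2 proteins. Here preadipocyte-gate cells with at least 2 Cd44 UMIs (986 cells) were set against those with 0 (3553 cells). This gate counts RNA of Icam1 and Fabp4 together, so these groups need not be the study's populations. Podn was at 101, 192 and 158 CPM in Cd44-high cells of mice 1, 2 and 3 and at 147, 253 and 205 CPM in Cd44-low cells. Aspn was at 276, 263 and 346 CPM against 387, 350 and 404 CPM. Both were lower in the Cd44-high cells of each mouse. Podn fell by 0.34 ± 0.07 SE on the log2 scale (adjusted p = 0.00417) and Aspn by 0.28 ± 0.07 SE (adjusted p = 0.0101, and 0.0782 without mouse 1).

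These 2 of 8 members, both lower, stand beside 18.7% of 11358 genes (12.3% higher and 6.41% lower), with a median of -0.16 against -0.00. The differences of the others were small, from -0.18 for Prelp to 0.11 for Bgn, apart from Fmod with -0.38 and an interval from -1.23 to 0.46. Dcn differed by -0.03, within an interval from -0.11 to 0.06. The Cd44-high cells were deeper, at a median of 8836, 13836 and 7558 UMIs against 7859, 12617 and 7096, and neither call was made when every cell was thinned to 3000 UMIs before gating, which left 43, 34 and 78 Cd44-high cells (Aspn -0.44, adjusted p = 0.121, and Podn -0.15, adjusted p = 0.843). Of the 12 early stress-response genes 7 were lower (Hspa1a by a log2 of -1.13) and 2 higher in Cd44-high cells. Endothelial markers summed to 0.390 to 1.94 CPM in Cd44-high cells and 6.56 to 83.1 CPM in Cd44-low cells. The part of all these in the results was not tested.

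Progenitors were divided by the stress-response genes Nr4a3 and Fosl1. Cells with at least 2 UMIs of them (10709 cells) were named activated and cells with 0 (6047 cells) resting. The names refer to these 2 genes only, since 7 of 12 early stress-response genes were lower in activated cells and 3 higher. Bgn was at 73.3, 97.9 and 70.4 CPM in the activated cells of mice 1, 2 and 3 and at 101, 118 and 113 CPM in the resting ones. Ogn was at 2268, 1634 and 1969 CPM against 2194, 1621 and 1887 CPM. Bgn was lower and Ogn slightly higher in each mouse. Bgn differed by a log2 of -0.35 ± 0.09 SE (adjusted p = 0.0358, and 0.128 at -0.24 without mouse 3) and Ogn by 0.16 ± 0.04 SE (adjusted p = 0.0314, but 0.0666 without mouse 1 and 0.0743 without mouse 3). Bgn did not pass (-0.26, adjusted p = 0.162) and Aspn did (0.18, adjusted p = 0.0484) once cells of more than 1 gate were left out.

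The 2 of 8 members called, 1 higher and 1 lower, stand beside 19.5% of 12713 genes (11.3% higher and 8.2% lower), and the median was 0.11 against 0.00. With scaling by library size only, the median of all genes moved to -0.11 and Dcn went from 0.07 to -0.06, so these small differences depend on the scaling. The activated cells were deeper as well, at a median of 7732, 12394 and 6967 UMIs against 6841, 11516.5 and 5984. Of the 12 early stress-response genes 7 were lower (Fos by a log2 of -1.06 and Hspa1b by -1.18) and 3 higher in activated cells. Their part in the Bgn and Ogn differences was not tested.

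**Figure D5:**
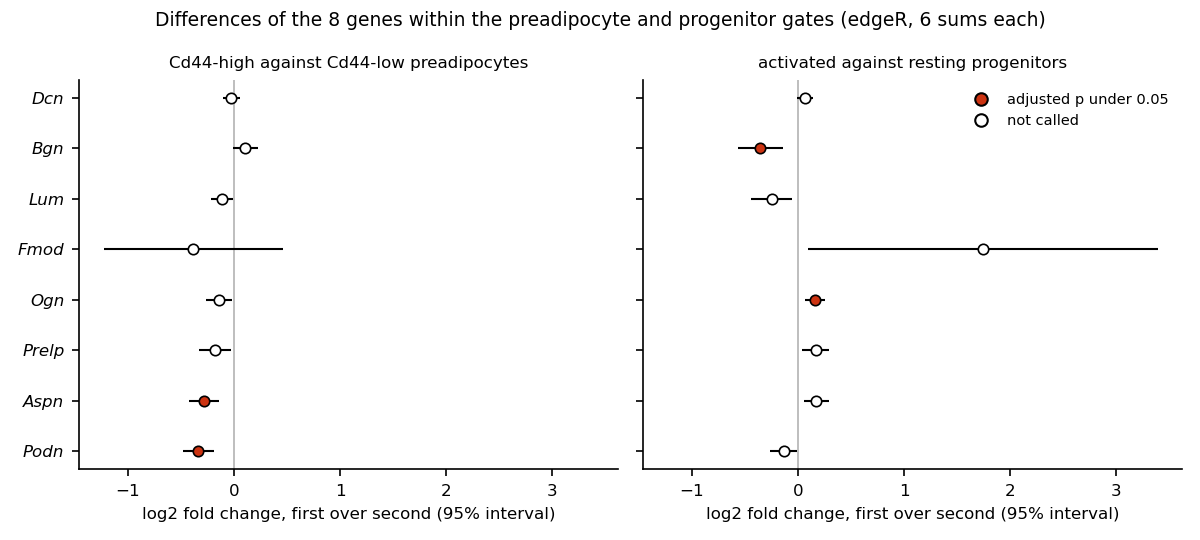
Log2 fold changes of the 8 genes within the preadipocyte gate (Cd44-high against Cd44-low) and within the progenitor gate (activated against resting), with 95% intervals and filled points at an adjusted p under 0.05. Aspn and Podn are filled on the left, at -0.28 and -0.34, and Bgn and Ogn on the right, at -0.35 and 0.16.

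Enzymes that build the sulfated chains differed between gates without one direction. Of 15 tested genes of chondroitin and dermatan sulfate synthesis, 7 were higher and 5 lower in preadipocytes than in progenitors, beside 29.7% and 30.1% of all genes tested. The lower ones included Ust, a uronyl 2-sulfotransferase (log2 -1.36), and Dsel, a dermatan sulfate epimerase (log2 -0.55). In regulatory cells against progenitors 4 were higher and 5 lower, beside 22.7% and 24.5% of all genes. The median log2 difference was 0.09 and 0.10, against 0.01 and -0.01 for all genes.

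Among 5 tested genes of keratan sulfate synthesis, 2 were higher and 2 lower in preadipocytes than in progenitors, and 2 were higher and 1 lower in regulatory cells, beside 59.9% and 47.2% of all genes in either direction. Chst1, a keratan sulfate sulfotransferase, fell from 60.0 ± 2.94 CPM in progenitors to 1.81 ± 1.37 CPM in preadipocytes (log2 -5.20, adjusted p = 9.69e-11) and 1.81 ± 1.16 CPM in regulatory cells (log2 -5.42, adjusted p = 3.95e-08). B4galt1, a galactosyltransferase, was higher in both (log2 0.43 and 0.79). Of 7 tested genes of sulfate supply and tyrosine sulfation, 3 were higher and 4 lower in preadipocytes than in progenitors, beside 29.7% and 30.1% of all genes. In regulatory cells against preadipocytes 3 were higher and 1 lower, beside 14.5% and 13%. Among them Tpst1, a tyrosine sulfotransferase, was higher in preadipocytes than in progenitors (log2 0.76) and lower in regulatory cells than in preadipocytes (log2 -0.79).

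Of 4 tested proteases and enhancers that act on collagen and proteoglycan propeptides, 1 was higher and 2 were lower in preadipocytes and in regulatory cells against progenitors, beside 59.9% and 47.2% of all genes in either direction. Bmp1, the procollagen C-proteinase that also trims biglycan, was at 450 ± 37.6 CPM in progenitors, 181 ± 9.58 CPM in preadipocytes and 183 ± 25.7 CPM in regulatory cells (log2 -1.35 and -1.27 against progenitors, adjusted p = 1.17e-08 and 9.99e-08). Its enhancer Pcolce2 was lower as well (log2 -2.19 and -0.62), while Pcolce was higher (log2 0.77 and 0.63).

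Of the 10 collagen partners, 7 were higher and 2 lower in preadipocytes than in progenitors, and 8 were higher and 2 lower in regulatory cells, with median log2 differences of 0.42 and 0.55, against 0.01 and -0.01 for all genes. Of all genes 29.7% were higher and 30.1% lower in preadipocytes, and 22.7% and 24.5% in regulatory cells. Both lower genes were in each case Col12a1 and Col14a1, collagens found on the surface of fibrils: Col14a1 was at 786 ± 191 CPM in progenitors, 94.9 ± 36.2 CPM in preadipocytes and 277 ± 94.2 CPM in regulatory cells. Col1a1 was at 5228 ± 863 CPM in progenitors and 13643 ± 562 CPM in regulatory cells (log2 1.44, adjusted p = 1.55e-07), and Col6a3 at 800 ± 96.8 CPM in progenitors and 3184 ± 339 CPM in preadipocytes (log2 1.96, adjusted p = 2.79e-11). In Cilp/Myoc cells against progenitors only Col12a1 of the 10 passed (log2 1.07, adjusted p = 2.11e-05), beside 3.77% of all genes.

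Of 14 tested growth factor and receptor partners, 2 were higher and 7 lower in preadipocytes than in progenitors, and 3 were higher and 8 lower in regulatory cells, with median log2 differences of -0.48 and -1.003, against 0.01 and -0.01 for all genes, of which 59.9% and 47.2% passed in either direction. The TGF-β receptor gene Tgfbr2 was at 518 ± 77.1 CPM in progenitors, 175 ± 20.7 CPM in preadipocytes and 217 ± 10.7 CPM in regulatory cells (log2 -1.60 and -1.21). The ligand Tgfb2 fell by 2.35 and by 1.36 on the log2 scale.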

How the data were processed

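The authors made the libraries with a droplet 3′ kit and counted UMIs per gene and barcode with Cell Ranger on mm10. The deposited values are raw counts, whole numbers without normalization. The matrix headers name version 4.0.0, the study's methods another release of the same series and the submitters' processing notes 2.1.1, so the sources differ. The members, gates and gene lists were chosen with earlier results of these data known. UMIs were summed per mouse and gate. The 12 sums were fitted in edgeR 4.0.16 (filterByExpr, TMM, quasi-likelihood test, mouse as a block) over 12566 genes, and the 6 sums of each split likewise, with Benjamini-Hochberg adjustment over all genes tested and a limit of 0.05. A gene is said to be higher or lower, to rise or fall, or to pass only under that limit.

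Sums ranged from 1750547 UMIs (regulatory gate, mouse 1) to 61932893 UMIs (progenitor gate, mouse 3). Sums of 1 mouse come from 1 library, and they went together: the correlation of their deviations from the gate means averaged 0.654, 0.886 and 0.772 in mice 1, 2 and 3 over 3951 genes, which are not independent. Levels are CPM of the summed UMIs, with SD over 3 mice. The gates were drawn on the cells in which the members were counted, and no member was used in a gate. The procedure was tested on simulated data for preadipocytes against progenitors, where 181 of 200 changed genes were recovered with 18 false calls over 12292 genes. The false calls were a larger part of the calls than the limit of 0.05. The simulated sums had no mouse effect, no shared cells and few changed genes, while 7524 genes passed in the data. The error rate of the calls described here is therefore not known from it. Doublets were not called. An alternative left out the deepest 2% of cells. Other alternatives changed scaling, test, filter, block, depth per cell, gates, mitochondrial limit and replicates. All 8 members are named, and of other lists at most 3 called genes with the largest change and at least 50 CPM. Of the gene identifiers, 32158 were found in GENCODE M21. Alternatives used DESeq2 1.42.0 in R 4.3.3, and tables and figures were made in python 3.11.15 with pandas 2.3.3 and matplotlib 3.10.9.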

Additional observations from a re-analysis of the deposited data

How the results depend on the processing

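Of the called differences of single members, 549 values under the alternatives kept their direction and side of the threshold, 47 no longer passed and 4 reversed, and of the differences not called 292 kept, 51 passed and 8 reversed. The number of members called was most fragile in the smaller contrasts. Without the replicate block it was 0 of 8 for both splits, 1 for Cilp/Myoc against progenitor, 4 for Cilp/Myoc against preadipocyte and 2 for regulatory against preadipocyte, and the block changed no call for Lum, Bgn or Podn in preadipocytes against progenitors.

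For the Cd44 split, with 2 members called, there was 1 with the DESeq2 test and 0 with thinned cells. There were 4 without cells carrying markers of other types, 6 with library size only and 4 without the low-count filter. When 1 mouse was left out there were 1 to 3. Of all genes, 1295 were higher and 688 lower of 11181 without cells carrying other markers. The counts were 951 and 1303 of 11358 with library size only and 1460 and 1108 of 18653 without the filter. Without mice 1, 2 and 3 they were 1142 and 537 of 11429, 768 and 308 of 11144 and 988 and 563 of 11693. For activated against resting progenitors, with 2 called, there were 4 with DESeq2 size factors and 1 with the DESeq2 test. There was 1 without cells carrying other markers, and there were 7 without the filter and 0 to 6 when 1 mouse was left out. Of all genes, 1778 were higher and 1052 lower of 12713 with DESeq2 size factors. The counts were 2357 and 1207 of 20540 without the filter. Without mice 1, 2 and 3 they were 1252 and 731 of 12572, 1661 and 1273 of 12954 and 853 and 366 of 12845. For Cilp/Myoc against progenitor (5) there were 8 with thinned cells, beside 388 genes higher and 235 lower of 9813 tested. When 1 mouse was left out there were 2 to 4. For Cilp/Myoc against preadipocyte (7) there were 4 with cells of more than 1 gate left out, beside 440 genes higher and 408 lower of 12426. For regulatory against preadipocyte (7) there were 4 to 7 when 1 mouse was left out. Genes called were then 1408 higher and 1297 lower of 12606 without mouse 1. They were 1331 and 1041 of 12629 without mouse 2, and 1264 and 1205 of 12953 without mouse 3.

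With cells of more than 1 gate left out, the family sum of Cilp/Myoc cells was 30934 CPM, from 80, 30 and 29 cells of mice 1, 2 and 3. Log2 differences then reversed for Aspn (-0.011) and Ogn (-0.20) against progenitors and for Podn (0.16) against preadipocytes. They also reversed for Dcn (0.27), Lum (0.62) and Fmod (2.33) against regulatory cells. Fmod in Cilp/Myoc against regulatory cells was 0.34 with thinned cells and -2.24 to 0.97 when 1 mouse was left out. Prelp ranged from -0.081 to 0.13 in preadipocytes against progenitors and from -0.00 to 0.25 in regulatory cells against preadipocytes. Dcn in activated cells was -0.0555 with library size only. The cause of these reversals was not tested.

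Among all genes, the count called without the block was 3881 instead of 7524 for preadipocyte against progenitor, 3138 instead of 5932 for regulatory against progenitor, 80 instead of 474 for Cilp/Myoc against progenitor, 1493 instead of 3457 for regulatory against preadipocyte, 3082 instead of 5958 for Cilp/Myoc against preadipocyte, 2352 instead of 4551 for Cilp/Myoc against regulatory, 2 instead of 2123 for the Cd44 split and 14 instead of 2477 for the activated split. With thinned cells it was 3343, 1873, 3335 and 2198 for regulatory against progenitor, regulatory against preadipocyte, Cilp/Myoc against preadipocyte and Cilp/Myoc against regulatory, 255 for the Cd44 split and 1304 for the activated split. Between gates 12566 genes were tested without the block and 9813 with thinned cells. In the Cd44 split these were 11358 and 7572, and in the activated split 12713 and 11336. The DESeq2 test gave 805 of 11358 and 1217 of 12713 for the splits. With cells of more than 1 gate left out the count was 1899, 848 and 698 of 12426 for Cilp/Myoc against progenitor, preadipocyte and regulatory. Without the filter, Cilp/Myoc against progenitor gave 949 of 21705. Without mice 1, 2 and 3 it gave 289 of 12606, 216 of 12629 and 291 of 12953. Without mouse 2 the Cd44 split gave 1076 of 11144, and without mouse 3 the activated split gave 1219 of 12845. With library size only, higher and lower calls were 951 and 1303 instead of 1395 and 728 for the Cd44 split, 860 and 2393 instead of 1434 and 1043 for the activated split and 1554 and 2227 instead of 1824 and 1633 for regulatory against preadipocyte.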

Other observations

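Of 10 further genes of the family, 4 reached 5 CPM in a gate. Ecm2 was at 87.1 ± 20.6 CPM in progenitors, 137 ± 34.1 CPM in preadipocytes, 319 ± 79.0 CPM in regulatory cells and 99.97 ± 24.4 CPM in Cilp/Myoc cells (SD, n = 3 mice), and differed by a log2 of 1.90 between regulatory cells and progenitors (edgeR adjusted p = 1.07e-09). Omd, which encodes osteoadherin and is separated from Ecm2 by Aspn, had a different order, with 60.2 ± 12.6, 11.8 ± 1.84, 29.1 ± 8.85 and 64.7 ± 17.2 CPM. It was lower in preadipocytes than in progenitors by a log2 of -2.37 (edgeR adjusted p = 8.19e-11). Tsku was at 16.0, 5.14, 8.81 and 16.6 CPM and Chadl at 7.75, 7.42, 8.07 and 8.30 CPM in the same gates. Chad was at 0 in all of them.

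The genes whose levels over the 12 sums were most like those of a member, among 3317 genes, were Cygb (Pearson's r 1.00), Prrx2 (0.98) and Podn (0.98) for Bgn, Rexo2, Gpnmb and Bgn for Podn, Tmem119, Ggt5 and Mmp19 for Lum, Rras, Col12a1 and Trf for Ogn, Zcchc24, Thbs2 and Hif1a for Aspn, and Selenow, Ergic3 and Spock2 for Dcn. For Prelp the highest r was 0.88, with Ccn5, and for Fmod 0.95, with Tspan3. The sums share libraries and partly cells, and these coefficients are a description.

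Of other proteoglycans, 6 of 18 tested genes were higher and 8 lower in preadipocytes than in progenitors, beside 29.7% and 30.1% of all genes. Hspg2, which encodes the basement membrane proteoglycan perlecan, was at 624 ± 56.6 CPM against 223 ± 18.1 CPM (log2 1.44, edgeR adjusted p = 6.57e-11), and Gpc3, a glypican, at 65.4 ± 14.0 CPM against 364 ± 12.8 CPM (log2 -2.53, edgeR adjusted p = 1.19e-10). In Cilp/Myoc cells against progenitors 5 were higher and 1 lower, beside 2.63% and 1.14% of all genes, among them Gpc3 (log2 0.78) and Prg4, which encodes lubricin (log2 1.00). Of 12 genes of the early stress response, 8 were higher and 2 lower in preadipocytes than in progenitors, beside 29.7% and 30.1% of all genes. In regulatory cells 10 were higher and 1 lower than in progenitors, beside 22.7% and 24.5% of all genes. The part of the digestion of the tissue in these differences was not tested.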
